A study of Mus musculus with 2 samples.

Results

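The respiratory chain was followed through 104 genes, taken as those whose symbols name subunits or assembly factors of complexes I to V. Each had at least 50 UMIs (unique molecular identifiers, the tags of captured RNA molecules). Of these genes, 13 lie in the mitochondrial genome (symbols mt-Nd, mt-Co, mt-Cytb and mt-Atp) and 91 in the nucleus (symbols starting Nduf, Sdh, Uqcr, Cox4 to Cox8 and Atp5). The symbols matched 107 of 32285 features, and 14172 features reached the same minimum. The genes that fell short were Cox7b2 with 0 UMIs, Cox8c with 3 and Cox8b with 44. The lowest members above the minimum were Cox6a2 with 74 UMIs, Cox7a1 with 97, Cox4i2 with 344 and Ndufa4l2 with 525. By role, the nuclear members comprised 7 core and 29 accessory subunits of complex I, 8 complex I assembly factors (Ndufaf), 4 subunits of complex II, 8 of complex III, 17 of complex IV and 17 of complex V. The last member, Ndufb1-ps, carries a pseudogene symbol and is annotated as a non-coding RNA.

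The cells were Lin-CD45- cells sorted from bone and marrow of 3 male INK-ATTAC mice, 24 months old and not treated, pooled into 1 sample. INK-ATTAC mice carry a transgene in which a p16Ink4a promoter fragment drives an inducible caspase 8, so that AP20187 can kill p16-expressing cells. Droplet 3′ RNA-seq of the pool was deposited as 2 lanes, named replicates, which held 10928 cell barcodes in common out of 11056. The lanes are therefore repeat measurements of the same cells, and no test between groups of cells over animals was possible. UMIs were added over the lanes, so a molecule read in both is counted in each, and UMI numbers can exceed numbers of molecules. All intervals below are 95% intervals for counting error only, and no p-value was computed. Lane 1 held 116827845 UMIs and lane 2 held 120556381. After removal of 339 barcodes with under 200 genes and 1144 with over 20% mitochondrial UMIs, 9573 cells remained. The mitochondrial members were the only mt- features counted, so the 20% limit capped this set itself.

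Complexes I to IV pass electrons from NADH and succinate to oxygen and pump protons across the inner mitochondrial membrane, and complex V (ATP synthase) uses the gradient to make ATP. Complexes I, III, IV and V are assembled from subunits of both genomes, whereas complex II is entirely nuclear. Erythroblasts depend on mitochondria for heme synthesis and discard them as they mature into red cells. LEPR+ stromal cells are the Cxcl12-expressing perivascular cells of the marrow, and megakaryocytes are the source of platelets.

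Cells were clustered without the 104 members and named from marker genes. Despite the Lin-CD45- gate, 6312 cells were erythroid-like (Klf1, Tfrc and Alas2 among 16 markers), 1567 were LEPR+ stromal-like (Lepr, Cxcl12, Adipoq), 149 fibroblast-like (Ly6a, Dcn, Pi16), 145 megakaryocyte-like (Pf4, Ppbp, Itga2b) and 65 endothelial-like (Cdh5, Pecam1, Flt1). The fibroblast-like cells also held osteoblast markers at a summed 22711 CPM (UMIs of a gene in every 1000000 UMIs of the class) beside 25415 CPM of fibroblast markers. The endothelial-like cells held adipocyte-list markers at 4810 CPM (a list with Fabp4, which leads this cluster) and LEPR+ stromal markers at 2808 CPM beside 4705 CPM of endothelial markers. The megakaryocyte-like cells held hematopoietic progenitor markers at 2260 CPM and neutrophil markers at 1656 CPM beside 27969 CPM of megakaryocyte markers. Erythroid RNA was present in every other class: 14 erythroid markers other than globins stood at 6.49% of their erythroid-like level in LEPR+ stromal-like cells, 21.3% in fibroblast-like, 23.7% in megakaryocyte-like and 49.7% in endothelial-like cells.

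The mitochondrial and nuclear sets did not go together across classes. In erythroid-like cells the mitochondrial set took 3.48% of all UMIs and the nuclear set 3.42%, or 1.02 mitochondrial UMIs per nuclear UMI. LEPR+ stromal-like cells gave a similar mitochondrial share, 3.66%, and a much lower nuclear share, 1.33%, so that 2.75 mitochondrial UMIs were counted per nuclear UMI. Fibroblast-like cells were intermediate with 3.55% and 1.93%, a ratio of 1.84. Megakaryocyte-like cells showed the opposite balance, with 2.65% mitochondrial and 3.42% nuclear UMIs and a ratio of 0.774. The nuclear log2 ratio of LEPR+ stromal-like over erythroid-like cells was -1.36 (-1.37 to -1.35), while that of the mitochondrial set was 0.08 (0.07 to 0.08). The latter changed sign under several ways of summing the cells, so no direction is read from it. The lanes differed little: the stromal nuclear share was 1.32% in lane 1 and 1.34% in lane 2, and the erythroid share 3.42% in both.

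**Figure D1:**
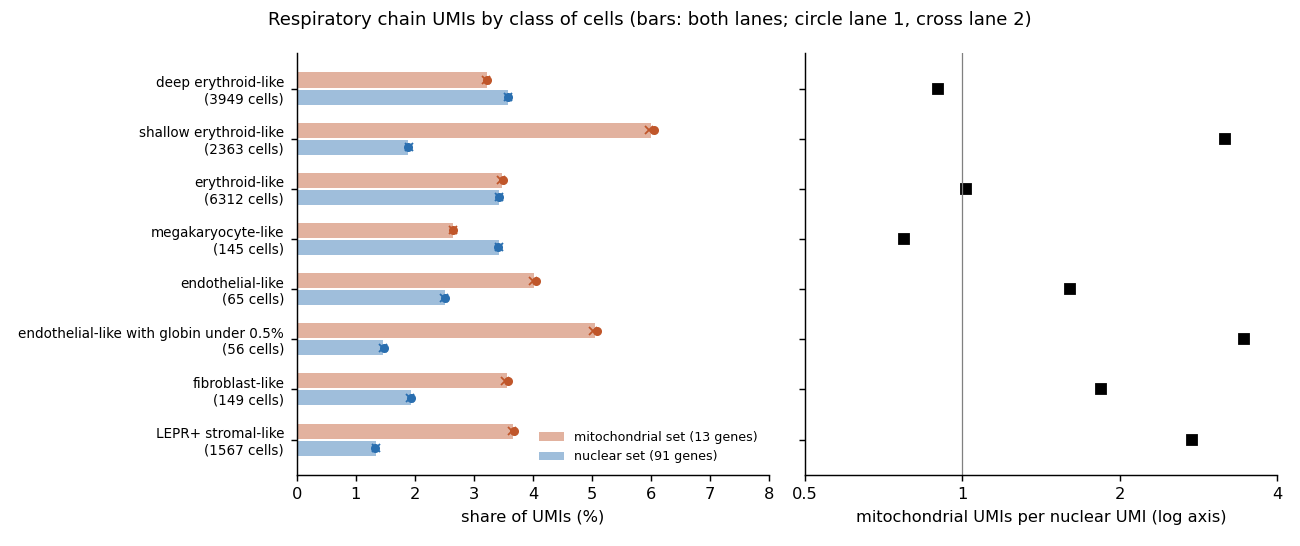
Left, share of all UMIs (%) in the mitochondrial and nuclear respiratory chain sets for each class of cells, with bars for both lanes together and symbols for each lane. Right, mitochondrial UMIs per nuclear UMI on a log axis. The ratio ran from 0.774 in megakaryocyte-like cells to 3.46 in endothelial-like cells with globin under 0.5%, and erythroid-like clusters of low depth (3.18) lay closer to LEPR+ stromal-like cells (2.75) than to deep erythroid-like clusters (0.899).

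The erythroid-like class itself was split along the same axis. Of its 8 clusters, 5 had a median of at least 10000 UMIs per cell and 3 had less; this division was chosen after the values were seen. The 3949 cells of the deep clusters held 3.22% mitochondrial and 3.58% nuclear UMIs. The 2363 cells of the shallow clusters, with a median of 6621 UMIs, held 6.01% and 1.89%, a ratio of 3.18. The pooled mitochondrial share was carried by some of the cells: the median shallow cell held 2.75% (0.478% and 14.6% at the 10th and 90th percentiles), below the median of 3.09% in the deep clusters. In the pooled UMIs all 13 mitochondrial members were higher in the shallow clusters (log2 ratio 0.71 to 1.41), which does not describe the median cell. Of the nuclear members, 44 of 91 were at least 2-fold lower there, against 12.7% of all genes tested. Sdhd, the membrane anchor of complex II, was at 42.5 CPM in shallow and 177 CPM in deep clusters, and Cox5a, a matrix-side subunit of complex IV, at 110 and 451 CPM. Their leading genes were Gm26917, Lars2, histone genes and the heat shock genes Hspa1a and Hspa1b. The shallow clusters also held more of the nuclear non-coding RNA Malat1 and of Gm26917, 2.61% of UMIs together against 0.330% in the deep clusters.

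Of Malat1 and Gm26917, only Malat1 moved with the stromal result. Together they made up 7.29% of UMIs in LEPR+ stromal-like cells and 0.542% in erythroid-like cells. Malat1 alone was at 7.23% and 0.414%, and Gm26917 alone at 0.0624% and 0.128%. In the shallow erythroid-like clusters Malat1 was at 1.44% and Gm26917 at 1.17%. The median depths of the stromal-like and erythroid-like cells were 5720 and 29682 UMIs. Cells were therefore compared within windows of the summed Malat1 and Gm26917 share, an alternative chosen after the values were seen. The windows match the sum and not either RNA. Between 1 and 2.5%, the nuclear set took 1.93% in 55 stromal-like cells and 2.15% in 1057 erythroid-like cells. Between 2.5 and 5%, it took 1.67% in 292 stromal-like cells and 1.60% in 711 erythroid-like cells. Between 5 and 10% the shares were 1.29% in 828 cells and 1.28% in 336 cells, and at 10% or more they were 0.937% and 0.934%. The stromal-like share was thus lower in the first of these windows and slightly higher in the other 3. Among cells of 5000 to 10000 UMIs the nuclear share was 1.34% in stromal-like and 1.94% in erythroid-like cells, with Malat1 and Gm26917 at 7.23% and 2.5%. The part of depth and of these nuclear RNAs in the class difference was not tested.

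**Figure D2:**
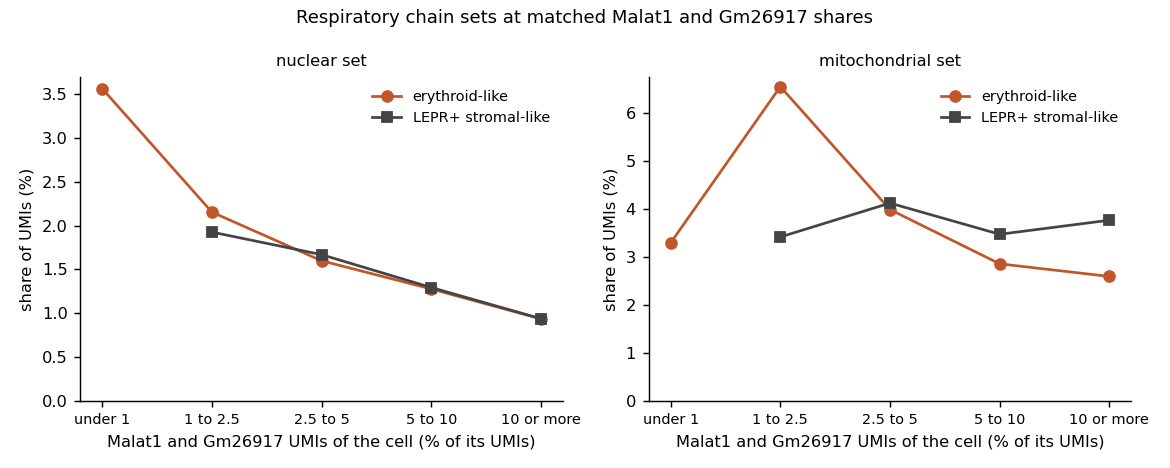
Share of UMIs (%) in the nuclear (left) and mitochondrial (right) sets for cells grouped by the share of Malat1 and Gm26917 among their UMIs; the stromal-like window under 1% is not drawn. The nuclear share of erythroid-like cells was 3.56% in the first window and 0.934% in the last, where stromal-like cells had 0.937%, whereas the mitochondrial shares of the last window were 2.59% and 3.76%.

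Across all erythroid-like cells, the nuclear decrease in LEPR+ stromal-like cells covered most members. At least 2-fold lower levels were found for 57 of 91 nuclear members, against 19.4% of all 14156 genes tested, and 4 of 91 were at least 2-fold higher, against 48% of all genes. The median log2 ratio was -1.24 for the nuclear members and 0.88 for all genes. By complex, the summed log2 ratio was -1.58 for complex III, -1.58 for complex V, -1.50 for complex IV, -1.01 for complex I and -0.91 for complex II. The complex I assembly factors were at -0.31 (-0.40 to -0.23). Over the shallow erythroid-like clusters alone the ratios were -0.85, -0.77, -0.37, -0.30 and 0.05 for complexes III, V, IV, I and II and 0.02 for the assembly factors.

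The largest decreases came from complexes III, IV and V. Cox6b2, the testis-type form of a complex IV subunit, had 204 and 205 CPM in lanes 1 and 2 of erythroid-like cells and 27.4 and 28.0 CPM in LEPR+ stromal-like cells (log2 ratio -2.89, -3.14 to -2.64). Atp5g1, one of 3 genes for the membrane ring of ATP synthase, had 858 and 859 CPM against 169 and 165 CPM (-2.36, -2.46 to -2.26). Atp5b, the catalytic beta subunit, had 1029 and 1028 CPM against 221 and 226 CPM (-2.20, -2.29 to -2.12). In each of these genes the lanes of a class lay close together, but they hold the same cells and do not show differences between animals. Cox5b of complex IV (-2.15) and Uqcrfs1, the Rieske iron-sulfur protein of complex III (-2.10), followed. At the other end, Sdha, the flavoprotein of complex II, had 98.5 CPM in stromal-like and 106 CPM in erythroid-like cells (-0.11), Ndufs4 had 111 and 109 CPM, and the assembly factor Ndufaf7 had 26.2 and 25.5 CPM.

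Most of these decreases were not seen in cells matched by the summed Malat1 and Gm26917 share, which does not match either RNA alone. The median log2 ratio of the nuclear members was 0.22 in the window of 2.5 to 5%, with 57 of 90 above 0, and 0.21 in that of 5 to 10%, with 62 of 91 above 0, while all genes gave 0.64 and 0.83. Uqcrfs1 was at 0.10 and 0.12 in these windows and Atp5g1 at -0.16 and -0.25, all with intervals that held 0. Cox5b (-0.71 and -0.83) and Atp5b (-0.94 and -0.92) stayed lower by less than 2-fold. In the window of 2.5 to 5%, 6 nuclear members were at least 2-fold lower in LEPR+ stromal-like cells and 24 at least 2-fold higher, where all genes gave 21.2% and 44.1%. In the window of 5 to 10% the numbers were 8 and 23, where all genes gave 19.7% and 47.3%. Cox6b2 was lowest in both windows (-2.14 and -2.21), and Uqcrc1, a core protein of complex III, was lower in both as well (-1.58 and -1.53). Ndufb7, Atp5e, Atp5k and Uqcr11 were also past 2-fold lower in both. Past 2-fold higher in both were, among others, the accessory complex I subunits Ndufb5 (1.95 and 1.82), Ndufc2 (1.61 and 2.61) and Ndufb6 (1.74 and 1.73) and the complex III subunit Uqcrb (1.61 and 1.84). Against the shallow erythroid-like clusters as a whole, 16 of 91 nuclear members were at least 2-fold lower in LEPR+ stromal-like cells, compared with 20.6% of all genes, and the median log2 ratio was -0.28.

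**Figure D3:**
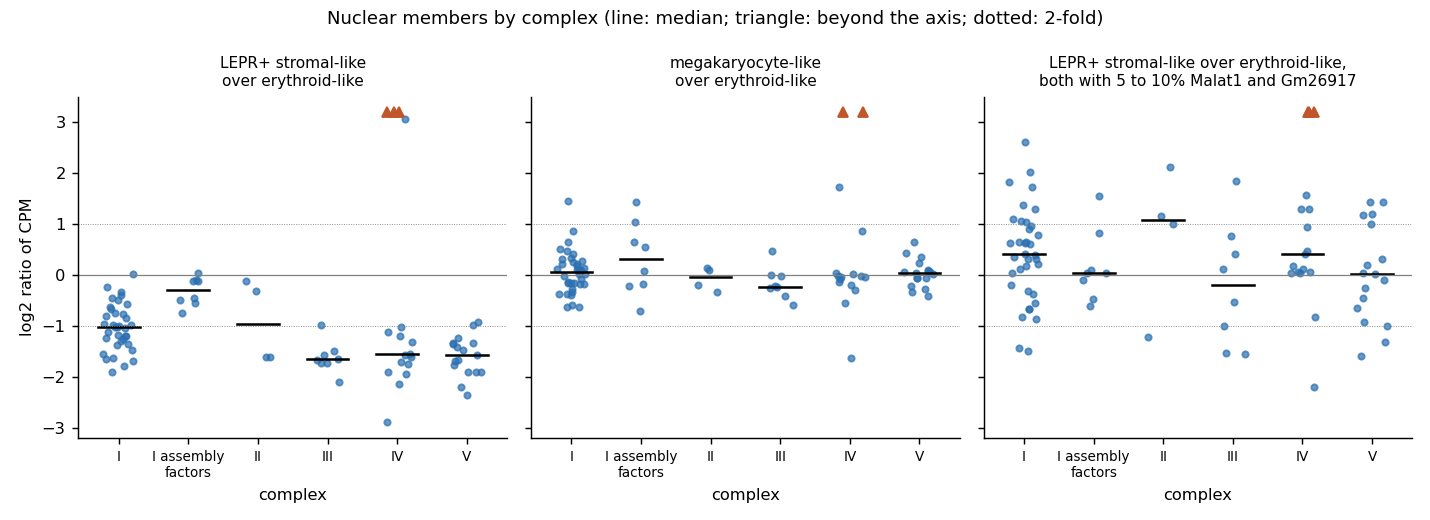
Log2 ratio of CPM for the nuclear members grouped by complex (Ndufb1-ps not drawn), each point a gene, lines medians, dotted lines 2-fold, triangles genes beyond the axis. Most nuclear members lay below 0 for LEPR+ stromal-like over erythroid-like cells (85 of 91), whereas 45 lay below and 45 above 0 in megakaryocyte-like cells.

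Many nuclear respiratory chain promoters are known to bind NRF1 and ETS-family factors (NRF2, also called GABP). RefSeq promoters (GRCm38.p6, 250 bases before to 50 after the start) matched 73 of the 91 nuclear members. The NRF1 motif, GCGCA and GCGC with any 1 base between them, was present on either strand in 19 of 73 (26.0%), against 5.19% of 27025 genes, and the ETS motif CCGGAAG in 19 of 73 (26.0%), against 9.93%. At least 1 of the motifs was found in 34 of 73 (46.6%), against 14.0% of all genes, and both in 4 members. The 27025 genes were not limited to those detected in these cells, whereas the members had at least 50 UMIs. Among members at least 2-fold lower in LEPR+ stromal-like cells, 23 of 48 (47.9%) held one, and 11 of 25 (44.0%) of the others. The promoters of the 3 most decreased members with each motif are shown, in capitals where a motif matched on either strand; they show where the motifs lie in members with large decreases. The 5 lowest members of all, Cox6b2, Atp5g1, Atp5b, Cox5b and Uqcrfs1, held neither motif in this window.
Atp5o (chr16:91931581-91931880, minus strand): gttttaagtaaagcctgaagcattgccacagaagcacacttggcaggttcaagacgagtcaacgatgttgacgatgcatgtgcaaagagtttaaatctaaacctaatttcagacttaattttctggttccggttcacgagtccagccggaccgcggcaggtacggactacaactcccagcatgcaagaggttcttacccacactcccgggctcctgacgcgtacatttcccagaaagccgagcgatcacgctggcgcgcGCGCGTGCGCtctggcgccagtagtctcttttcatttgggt
Atp5c1 (chr2:10080383-10080682, minus strand): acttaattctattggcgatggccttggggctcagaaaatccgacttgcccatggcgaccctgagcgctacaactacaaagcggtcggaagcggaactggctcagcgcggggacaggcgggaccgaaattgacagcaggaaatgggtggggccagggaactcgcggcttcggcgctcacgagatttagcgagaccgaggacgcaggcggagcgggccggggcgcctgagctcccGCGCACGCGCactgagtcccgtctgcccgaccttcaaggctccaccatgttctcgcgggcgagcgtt
Uqcrc1 (chr9:108936398-108936697, plus strand): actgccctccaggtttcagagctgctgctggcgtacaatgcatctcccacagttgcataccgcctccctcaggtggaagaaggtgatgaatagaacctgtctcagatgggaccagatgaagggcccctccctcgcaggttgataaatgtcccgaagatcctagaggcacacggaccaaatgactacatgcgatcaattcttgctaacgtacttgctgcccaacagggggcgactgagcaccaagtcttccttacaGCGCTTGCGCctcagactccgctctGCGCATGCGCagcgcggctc
Cox6a1 (chr5:115348909-115349208, minus strand): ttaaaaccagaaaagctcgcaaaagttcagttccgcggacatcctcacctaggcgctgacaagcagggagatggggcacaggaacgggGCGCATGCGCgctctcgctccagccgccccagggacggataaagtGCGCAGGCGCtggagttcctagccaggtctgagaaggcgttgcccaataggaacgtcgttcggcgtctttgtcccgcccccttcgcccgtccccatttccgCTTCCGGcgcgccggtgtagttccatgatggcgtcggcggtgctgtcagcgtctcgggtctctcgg
Uqcr11 (chr10:80406772-80407071, minus strand): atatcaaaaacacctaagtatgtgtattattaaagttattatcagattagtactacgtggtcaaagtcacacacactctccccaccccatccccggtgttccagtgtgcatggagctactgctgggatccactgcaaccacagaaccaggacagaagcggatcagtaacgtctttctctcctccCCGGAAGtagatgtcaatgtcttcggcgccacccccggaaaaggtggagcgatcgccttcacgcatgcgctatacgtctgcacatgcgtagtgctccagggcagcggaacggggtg
Uqcrh (chr4:116075021-116075320, minus strand): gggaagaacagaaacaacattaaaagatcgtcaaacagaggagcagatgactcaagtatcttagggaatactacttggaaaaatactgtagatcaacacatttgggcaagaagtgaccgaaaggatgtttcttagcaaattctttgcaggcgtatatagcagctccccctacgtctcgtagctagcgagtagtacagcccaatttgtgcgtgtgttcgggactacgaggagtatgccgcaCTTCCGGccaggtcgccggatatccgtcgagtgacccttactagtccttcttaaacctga
Cox6a1 held both motifs, with 2 NRF1 matches and 1 ETS match, Uqcrc1 held 2 NRF1 matches, and the other promoters held 1 match each. These matches describe the sequence only.

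The members at least 2-fold higher in LEPR+ stromal-like cells were 4 isoforms of complex IV subunits, whereas another isoform, Cox6b2, was the lowest member. Cox4i2, a regulatory isoform of subunit 4 known to be induced by hypoxia, had 22.4 and 23.2 CPM in lanes 1 and 2 of LEPR+ stromal-like cells and 16.8 CPM in fibroblast-like cells. In erythroid-like cells it had 6 UMIs in all (0.029 CPM), a log2 ratio of 9.62 (8.03 to 11.92), and in endothelial-like cells it had 0. The main form Cox4i1 ran the other way, with 1294 CPM in erythroid-like, 1063 in megakaryocyte-like, 875 in fibroblast-like and 445 CPM in LEPR+ stromal-like cells. A Cox4i2 UMI was seen in 152 of 1567 LEPR+ stromal-like cells (9.70%, exact interval 8.28 to 11.3%), in 15 of 149 fibroblast-like cells (10.1%) and in 5 of 6312 erythroid-like cells (0.079%), which are deeper. Among the 1347 LEPR+ stromal-like cells with at least 3 UMIs of pericyte markers, 10.3% held a Cox4i2 UMI and 10.8% a Ndufa4l2 UMI. Of the other 220 cells, whose median depth was lower (4297 against 5950 UMIs), 5.91% and 2.73% did. The cut took in most of the class, and Pdgfrb is in both the pericyte and the LEPR+ stromal marker list, so it does not set pericytes apart. The part of pericytes or of depth in these shares was not tested.

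Ndufa4l2, the hypoxia-inducible paralog of the complex IV subunit Ndufa4, had 27.1 and 28.0 CPM in LEPR+ stromal-like cells, 115 CPM in fibroblast-like cells and 0.087 CPM in erythroid-like cells (log2 ratio 8.31 for stromal-like cells, 7.34 to 9.47). Its UMIs were unevenly spread in the fibroblast-like class, where 28 of 149 cells held all 192 and 1 cell held 60. Ndufa4 was at 806 CPM in erythroid-like, 371 in LEPR+ stromal-like and 334 CPM in fibroblast-like cells. Cox7a1, the heart and muscle form of subunit 7a, was rare throughout, with 20 UMIs in LEPR+ stromal-like, 13 in megakaryocyte-like and 50 in the much larger erythroid-like class (2.04, 3.74 and 0.242 CPM), while Cox7a2 stood between 190 and 633 CPM in these classes. The fourth member counted as higher, Cox6a2, had 2 stromal UMIs and 0 erythroid UMIs, for which no fold is given. Both Cox4i2 and Ndufa4l2 also stayed at 0 UMIs in the erythroid-like cells of the matched Malat1 and Gm26917 windows. Their main forms were not lower in stromal-like cells there: Cox4i1 had a log2 ratio of 0.04 and 0.06, with intervals that held 0, and Ndufa4 turned to 1.39 and 1.57.

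Within the mitochondrial set, the genes diverged although the summed share was similar. In LEPR+ stromal-like cells mt-Cytb, the only mitochondrial subunit of complex III, had 2660 and 2646 CPM in the lanes of erythroid-like cells and 5141 and 5146 CPM in those of stromal-like cells (log2 ratio 0.96, 0.94 to 0.97). The largest subunit of complex IV, mt-Co1, had 5620 and 5615 CPM in erythroid-like and 3742 and 3758 CPM in stromal-like cells (-0.58, -0.60 to -0.56). Thus mt-Cytb made up 14.0% of the mitochondrial set in stromal-like cells and 7.63% in erythroid-like cells, and mt-Co1 10.2% and 16.2%. Of the 13 genes, none passed 2-fold; 8 had intervals above 0 and 5 below. These counts turned with the erythroid-like cells taken as reference. Over the shallow clusters 2 intervals lay above 0 and 11 below, with 3 genes at least 2-fold lower, against 20.6% of all genes, and over the deep clusters 3 genes were at least 2-fold higher, against 49.4%. By complex the log2 ratio was 0.46 for the 7 complex I genes, 0.96 for complex III, 0.10 for complex V and -0.31 for complex IV, and over the shallow clusters it was -0.39, 0.28, -0.66 and -1.10.

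The complex I genes of the mitochondrial genome did not move as a block. The ratios of mt-Nd4l (0.99), mt-Nd5 (0.84), mt-Nd3 (0.81), mt-Nd4 (0.67) and mt-Nd2 (0.42) were positive, and that of mt-Nd1 was -0.07 (-0.10 to -0.03). The ratio of mt-Nd6 was -0.46 (-0.69 to -0.23), with 44.0 CPM in erythroid-like cells. It is the 1 member on the minus strand of the mitochondrial genome (M, 13552 to 14070). In fibroblast-like cells the ratio was 0.56 for mt-Cytb (3910 CPM) and -0.15 for mt-Co1 (5055 CPM). The annotation of mt-Atp8 (7766 to 7969) overlaps mt-Atp6 (7927 to 8607), and mt-Nd4l (9877 to 10173) overlaps mt-Nd4 (10167 to 11544), so the split of UMIs within these pairs is uncertain.

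**Figure D4:**
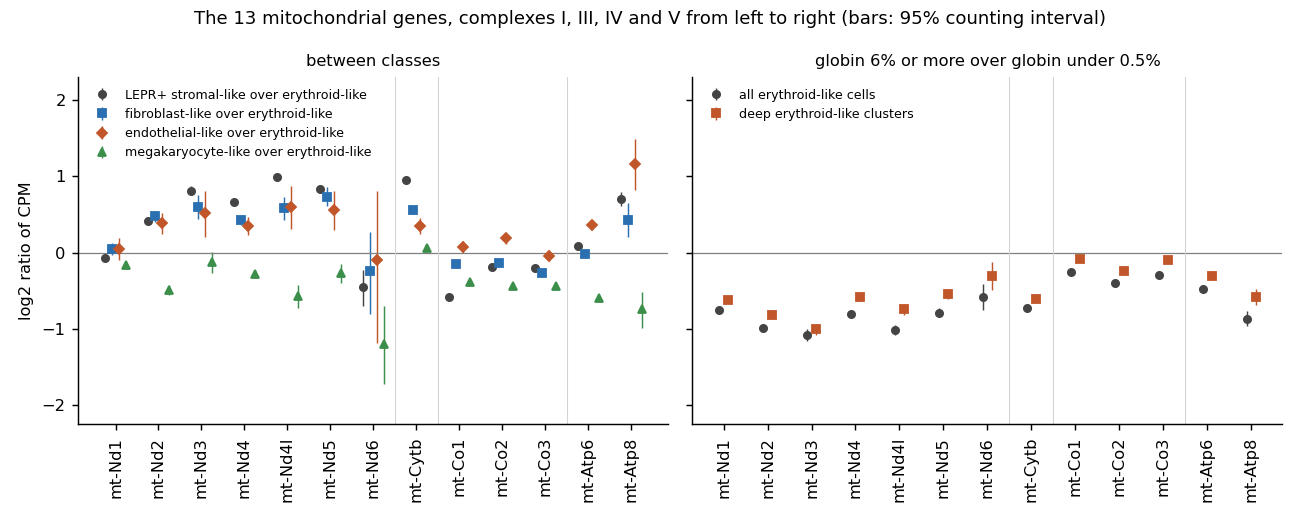
Log2 ratio of CPM for the 13 mitochondrial members, with 95% counting intervals: left, 4 classes over erythroid-like cells; right, erythroid-like cells with a globin share of 6% or more over those under 0.5%. mt-Cytb and most mt-Nd genes lay above mt-Co1, mt-Co2 and mt-Co3 in stromal-like and fibroblast-like cells, 12 of 13 ratios were below 0 in megakaryocyte-like cells, and all 13 were below 0 across the globin range, least so for the mt-Co genes.

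Endothelial-like cells gave 4.02% mitochondrial and 2.5% nuclear UMIs, but 9 of the 65 cells stood apart. These had a globin share of at least 0.5%, a median of 13930 UMIs against 3171 in the others, and 56.1% of the UMIs of the class. Without them, the remaining 56 cells gave 5.05% mitochondrial and 1.46% nuclear UMIs, a ratio of 3.46. The nuclear log2 ratio over erythroid-like cells moved from -0.45 (-0.49 to -0.41) to -1.23 (-1.30 to -1.15). At 2000 to 5000 UMIs, the one range of depth with enough endothelial-like cells (33), their nuclear share was 1.58% and that of erythroid-like cells 1.48%, so the direction turned. With all cells, 5 of 91 nuclear members were at least 2-fold lower, against 27.4% of all genes, and 4 of these 5 were rare genes at 0 UMIs in the class; the fifth was Ndufs1, the largest core subunit of complex I (36.9 against 80.5 CPM). Without the globin-rich cells the count was 57 of 91, against 42.7% of all genes. Atp5g1 (154 CPM) and Cox5b (193 CPM) were then as low as in LEPR+ stromal-like cells (167 and 183 CPM). Every mitochondrial member was above its erythroid-like level in these 56 cells (0.21 to 1.71, 12 of 13 intervals above 0), but the class was small and held 4.44% Malat1 and Gm26917.

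In fibroblast-like cells 30 of 91 nuclear members were at least 2-fold lower than in erythroid-like cells, against 20.4% of all genes, and beside Cox7a1 with 0 UMIs the lowest were Cox6b2 (38.5 CPM, log2 ratio -2.41), Atp5g1 (-1.38) and Cox5b (-1.29). Cox7a2l, which stabilizes a supercomplex of complexes III and IV, was not among them, at 241 CPM against 212 CPM. Malat1 and Gm26917 made up 3.15% of UMIs in this class and 0.542% in erythroid-like cells, and their part in the difference was not tested. By depth, the nuclear share of fibroblast-like and erythroid-like cells was 1.75% and 1.48% at 2000 to 5000 UMIs (26 fibroblast-like cells), 1.62% and 1.94% at 5000 to 10000 UMIs (67 cells) and 1.59% and 2.75% at 10000 to 20000 UMIs (43 cells). The 9 fibroblast-like cells with globin of at least 0.5% held 17.2% of the UMIs of the class. Without them Cox6b2 was at 16.7 CPM (-3.62) and 42 of 91 nuclear members were at least 2-fold lower, against 24.2% of all genes.

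Megakaryocyte-like cells matched erythroid-like cells in the nuclear set, with a log2 ratio of -0.00 (-0.01 to 0.01), and had less of the mitochondrial set, with -0.39 (-0.41 to -0.38). The nuclear match differed with depth: among cells of 5000 to 20000 UMIs, 61 megakaryocyte-like cells had 1.79% mitochondrial and 3.27% nuclear UMIs, and 2018 erythroid-like cells had 5.61% and 2.37%. At 40000 UMIs or more, the 22 megakaryocyte-like cells had 0.876 mitochondrial UMIs per nuclear UMI and erythroid-like cells 0.897, and the 20 megakaryocyte-like cells under 2000 UMIs had 2.62. Malat1 and Gm26917 made up 0.636% of the pooled UMIs and 0.542% in erythroid-like cells, with medians per cell of 0.0511% and 0.465%. Leaving out the 18 megakaryocyte-like cells with globin at or above 0.5%, which held 18.5% of the UMIs, gave 2.70% and 3.45%. The mitochondrial share varied strongly from cell to cell, with a median of 2.04% and 0.063% and 4.99% at the 10th and 90th percentiles.

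Of the mitochondrial members in megakaryocyte-like cells, 12 of 13 were below the erythroid-like level (11 with intervals below 0), mt-Nd6 by the most (19.3 CPM, -1.19), and mt-Cytb was the exception (2720 and 2805 CPM in the lanes, 0.06, 0.02 to 0.10). Of the nuclear members, 6 of 91 were at least 2-fold higher, against 30.7% of all genes. Ndufa3, an accessory subunit of complex I, had 646 and 665 CPM in the lanes against 237 and 241 CPM (1.45, 1.37 to 1.54). The complex I assembly factors Ndufaf5 (11.2 against 4.12 CPM, 1.44) and Ndufaf3 (59.8 against 29.2 CPM, 1.04) were higher, and Cox7a1, Cox4i2 and Ndufa4l2 rested on 13, 3 and 1 UMIs. Cox5a (766 against 419 CPM), Ndufv3 (279 against 154 CPM) and Atp5g2 (690 against 437 CPM) stood next below 2-fold. Cox6b2 was again the lowest (65.8 CPM, -1.64, -1.92 to -1.37). Its level in the cells with globin under 0.5% was 37.4 CPM, so part of it moved with the globin-rich cells.

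Across the erythroid-like cells, the mitochondrial set was lower at a higher globin share, which grows as erythroblasts mature, whereas the nuclear set changed little. In bins of globin under 0.5%, 0.5 to 1%, 1 to 2.5%, 2.5 to 6% and 6% or more, with 1877, 771, 1599, 1486 and 579 cells, the mitochondrial share was 3.95, 3.97, 3.42, 3.16 and 2.85%. The nuclear share was 3.37, 3.32, 3.48, 3.49 and 3.25%. The mitochondrial log2 ratio between the end bins was -0.47 (-0.48 to -0.47). Globin takes part of the total in the last bin, and with globin left out of the total the mitochondrial share still went from 3.96% to 3.13%, whereas the nuclear share went from 3.38% to 3.57%, so the nuclear direction depended on this choice.

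Depth differed between these bins as well. The deep clusters showed a shallower mitochondrial course, 3.5, 3.43, 3.2, 3.07 and 2.84%, and a nuclear decrease, 3.69, 3.61, 3.61, 3.55 and 3.28%. With globin out of the total, the mitochondrial share of the deep clusters went from 3.51% to 3.12%. Their nuclear share then went from 3.70% to 3.61%, with 3.69% in the bin of 2.5 to 6%. In the shallow clusters the mitochondrial share was 6.45, 6.88, 5.82, 4.82 and 3.17%, while the nuclear share went from 1.58 to 2.41%; the last bin there held 60 cells. Malat1 and Gm26917 moved against the nuclear share in both, from 3.53% to 1.73% across the shallow and from 0.251% to 0.470% across the deep bins, and their part in it was not tested. The mitochondrial share of the last bin was thus below that of the first in both kinds of cluster. With globin in the total, the nuclear share moved in opposite directions. Mitochondrial UMIs per nuclear UMI went from 0.949 to 0.866 in the deep and from 4.07 to 1.32 in the shallow clusters.

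**Figure D5:**
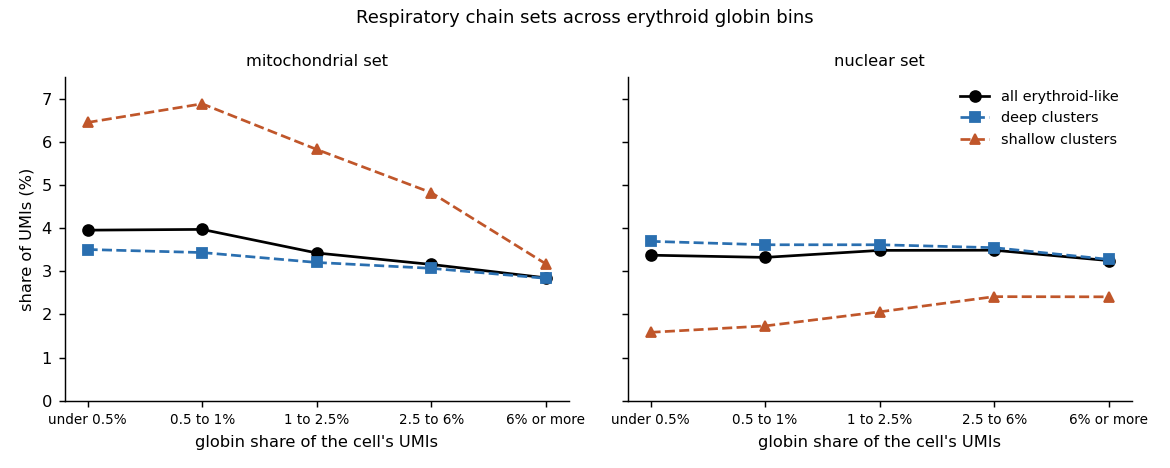
Share of UMIs (%) in the mitochondrial (left) and nuclear (right) sets across bins of the globin share of erythroid-like cells, for all cells, for clusters with a median of at least 10000 UMIs (deep) and for the others (shallow). The mitochondrial share was 3.5% in the first and 2.84% in the last bin of deep clusters, and 6.45% and 3.17% in shallow ones, and the nuclear lines did not share a direction.

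All 13 mitochondrial members were lower in the bin with the most globin, but unequally. The median ratio of all genes was -0.62, and 2 of the 13 were at least 2-fold lower, against 35.8% of all genes. mt-Nd2 had 1841 CPM in the first bin, 1726, 1422 and 1184 CPM in the next and 925 CPM in the last (log2 ratio -0.99, -1.03 to -0.96). mt-Nd3 went from 384 to 182 CPM (-1.08) and mt-Cytb from 3288 to 1989 CPM (-0.72). By contrast mt-Co1 had 5925, 6340.5, 5597, 5338 and 4948 CPM (-0.26, -0.27 to -0.24), and mt-Co3 was at -0.29. By complex the ratio was -0.85 for complex I, -0.72 for complex III, -0.48 for complex V and -0.31 for complex IV. In the deep clusters the order was the same, with -0.67, -0.61, -0.31 and -0.14. Globin is in these totals and took 0.187% and 9.16% of UMIs in the deep end bins, which lowers every other share.

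Most nuclear members differed between the end bins by less than 2-fold, with 51 intervals below 0 and 25 above 0 among the 90 measured. At least 2-fold lower were 7 of 91, against 35.8% of all genes, and 1 was at least 2-fold higher, against 6.36%. Of these 8 members 4 were assembly factors of complex I. In the deep clusters alone 8 were at least 2-fold lower, against 32.8%. Ndufaf6, an assembly factor of complex I, had 23.2, 14.4, 11.3, 9.21 and 5.34 CPM from the first bin to the last (-2.12, -2.56 to -1.70). Ndufaf4 (80.9 to 33.9 CPM), Ndufaf8 (80.4 to 35.4 CPM) and Ndufaf5 (6.25 to 2.57 CPM) went the same way, and the 8 Ndufaf genes together had a log2 ratio of -0.95 (-1.03 to -0.88). Ndufaf3 was the exception, at 30.8 and 30.5 CPM. Beside Atp5g2, the other 2 members counted, Ndufa4l2 and Cox7a1, rested on few UMIs, as did Cox4i2, the only member counted as higher.

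The genes of the ATP synthase membrane ring, Atp5g1, Atp5g2 and Atp5g3, encode the same mature protein and differed in their course. Atp5g2 had 579, 459, 441, 367 and 257 CPM across the bins (-1.17, -1.24 to -1.11). Atp5g1 had 1032, 894, 871, 771 and 617 CPM (-0.74), and Atp5g3 went from 465 to 365 CPM (-0.35). Other members ran the other way in the same cells: Atp5h, a stalk subunit of ATP synthase, had 784, 838, 971, 1066 and 1123 CPM (0.52, 0.48 to 0.55), and Cox6a1 had 473, 501, 549, 603 and 645 CPM (0.45). Ndufb7 (0.40), Ndufa3 (0.34) and Ndufb9 (0.33) were also higher.

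Among the nuclear subunits, those of complex II had the lowest summed ratio along the globin range, near the median of all genes (-0.62). Its summed log2 ratio between the end bins was -0.58 (-0.63 to -0.53), against -0.06 for the nuclear complex I subunits, -0.11 for complex III, 0.05 for complex IV and -0.06 for complex V. Sdhd went from 199 to 114 CPM, Sdhb, the iron-sulfur subunit, from 164 to 112 CPM, Sdhc from 81.9 to 58.7 CPM and Sdha from 110 to 86.3 CPM. In the deep clusters the ratio was -0.68 (-0.74 to -0.63). In LEPR+ stromal-like cells the same genes separated, with Sdhd (53.6 CPM, -1.62) and Sdhb (45.5 CPM, -1.60) far below and Sdhc (60.7 CPM, -0.32) and Sdha (-0.11) close to the erythroid-like level. In the matched Malat1 and Gm26917 windows of 2.5 to 5% and 5 to 10%, Sdhd (1.36 and 1.00), Sdhc (1.38 and 2.12) and Sdha (0.90 and 1.17) were higher in stromal-like cells and Sdhb lower (-0.69 and -1.22).

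Neighbouring mitochondrial pathways were read beside the members, as counts without a test. The counts in LEPR+ stromal-like cells stand beside 19.4% of all genes at least 2-fold lower and 48% at least 2-fold higher. Here and in the next paragraph the reference is all erythroid-like cells, deep and shallow clusters together. These lists were not compared in cells matched by the summed Malat1 and Gm26917 share. In LEPR+ stromal-like cells 17 of 22 genes of protein import and the outer membrane were at least 2-fold lower and none higher, among them the matrix chaperones Hspe1 (148 against 762 CPM) and Hspd1 (128 against 555 CPM). Of 10 genes listed as electron and adenine nucleotide carriers, 5 were lower and 1 higher. The uncoupling protein gene Ucp2 was lowest (28.7 against 364 CPM). Cyc1 (57.3 against 256 CPM) and cytochrome c (Cycs, 50.6 against 222 CPM) were lower. Cyc1 encodes cytochrome c1, a complex III subunit whose symbol the naming rule does not match. The muscle-type nucleotide carrier Slc25a4 was higher (240 against 42.6 CPM) where the ubiquitous Slc25a5 was lower (121 against 640 CPM). Of 16 genes of the tricarboxylic acid cycle, 6 were lower and 0 higher. Of 40 assembly factors outside the naming rule, 6 were lower, Cox17 among them, and 2 higher, so that the lower share did not exceed that of all genes. Genes outside oxidative metabolism were lower too: 47 of 78 mitochondrial and 76 of 78 cytosolic ribosomal protein genes were at least 2-fold lower, lists added after the values were seen.

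For genes of mitophagy and of glycolysis, the shares at least 2-fold higher in LEPR+ stromal-like cells lay below the 48% of all genes. Of 21 mitophagy genes tested, 8 were at least 2-fold higher and 1 lower, with the receptor Bnip3 at 34.3 against 1.25 CPM and Map1lc3a at 111 against 10.9 CPM. Of 17 glycolysis genes, 6 were higher and 4 lower, and Pkm, pyruvate kinase of muscle type, was at 48.3 against 0.557 CPM. In megakaryocyte-like cells 12 of 17 glycolysis genes were at least 2-fold higher, against 30.7% of all genes, and 1 lower, against 18.7%, with Pkm at 488 CPM, Pgam1 at 241 against 21.9 CPM and Ldha at 1008 against 253 CPM. No import gene and no mitochondrial ribosomal protein gene passed 2-fold there, and Etfb, a subunit of the electron transfer flavoprotein, was higher (776 against 154 CPM). Regulators of mitochondrial biogenesis moved little, with 2 of 11 at least 2-fold higher in LEPR+ stromal-like cells (Esrra and Sp1); Nrf1 itself had 31.6 against 48.7 CPM.

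Between the end bins of globin, of 28 genes that read and maintain mitochondrial DNA 18 were at least 2-fold lower at 6% globin or more and 0 higher, where 35.8% of all genes were lower. The mitochondrial RNA polymerase Polrmt went from 7.13 to 1.89 CPM, its elongation factor Tefm from 5.50 to 1.15 CPM and the packaging factor Tfam from 79.6 to 30.1 CPM. Of 22 import genes 11 were lower, with Hspd1 at 992 and 156 CPM. Of 17 glycolysis genes 11 were lower, with Ldha at 413 and 96.8 CPM. The counts of the other lists were near or under the share of all genes, or rested on few genes: 13 of 40 further assembly factors, including the copper chaperone Sco2 (22.2 and 2.83 CPM) and Cox10 (20.1 and 4.92 CPM), 5 of 16 tricarboxylic acid cycle genes, 5 of 11 regulators of biogenesis and 3 of 21 mitophagy genes. The median log2 ratio of all genes in this comparison was -0.62, and that of the nuclear members -0.13. Cytosolic ribosomal protein genes did not pass 2-fold in either direction (0 of 78).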

How the data were processed

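RNA of Lin-CD45- bone and marrow cells from 1 pool of 3 mice was measured in 2 lanes. The count matrices, as deposited by the authors, hold UMI counts per gene and barcode, aligned to mm10, filtered and counted with Cell Ranger per the submitters' processing notes and the study's methods, which name another release than the 3.0.2 in the matrix headers. The lanes were added up barcode by barcode, and cells with at least 200 genes and at most 20% mitochondrial UMIs were kept. Cells were clustered in R 4.3.3 with Seurat 5.3.0 and sctransform 0.4.2 (3000 variable genes without the members, 30 components, resolution 0.8). A cluster was named when at least 3 markers of a list reached 10% of its cells and 25% of the level in the top cluster, and stayed unnamed below a depth of 1/3 of the median with no marker among its 10 leading genes.

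Levels are UMIs of a gene over all UMIs of a class (CPM), without a pseudocount. Intervals are exact conditional binomial intervals at 95%, taken on the mean of the lanes because the lanes share cells. With 1 sample no test was made, and a gene was counted as apart at 2-fold. Levels are not ranked between genes. On simulated counts for the stromal comparison, 195 of 200 genes changed 4-fold passed 2-fold. Of the intervals of all 13420 genes, 96.3% held the true value, and 869 unchanged genes also passed 2-fold. Scrublet called 224 cells as doublets in either lane (2.34%); these were kept, and removed in an alternative. Named nuclear members were the 5 largest ratios each way per comparison with intervals outside 0, complex II and the isoform families; of other lists up to 4 genes were named, and the remaining genes named were chosen after their values were seen. The members and lists were chosen with earlier results of these data known.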

Additional observations from a re-analysis of the deposited data

Results flagged for a closer look

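Signal of the respiratory chain was also present in barcodes outside the classes compared. The 1144 barcodes over the mitochondrial limit, with a median of 3046 UMIs, held 41.2% mitochondrial and 1.05% nuclear member UMIs. When all barcodes were clustered without the limit, 599 of them lay in erythroid-like clusters, 515 in unnamed clusters and 10 in LEPR+ stromal-like clusters. Among cells within the limit, 4 clusters of low depth stayed unnamed. Cluster 8 (439 cells) had 1.69 mitochondrial UMIs per nuclear UMI, cluster 10 (352 cells) had 5.16, cluster 11 (250 cells, 16.9% globin) had 1.79 and cluster 12 (248 cells) had 1.07.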

How the results depend on the processing

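Values are log2 ratios of the set shares over erythroid-like cells, or of the bin with 6% globin or more over that under 0.5%. With a mitochondrial limit of 10%, the mitochondrial and nuclear ratios were 0.12 and -1.38 (stromal), 0.041 and -0.40 (endothelial), -0.30 and -0.087 (bins), and -0.32 for the megakaryocyte mitochondrial set. With no limit and new clusters, the stromal mitochondrial ratio reversed to -0.013, and the others were 0.17 and -0.70 (endothelial), -0.31 (megakaryocyte mitochondrial) and -0.91 and -0.0082 (bins). With at least 2000 UMIs, endothelial ratios were 0.11 and -0.41. With globin out of the total they were 0.041 and -1.40 (stromal), -0.42 and -0.030 (megakaryocyte) and -0.34 and a reversed 0.081 (bins). As means over cells they were a reversed -0.067 and -1.18 (stromal), 0.52 and -0.86 (endothelial), -0.70 and 0.051 (megakaryocyte) and -0.54 and a reversed 0.28 (bins). Without called doublets they were 0.042 and -1.38 (stromal) and 0.28 and -0.50 (endothelial). With classes from marker UMIs they were 0.18 and -1.32 (stromal), 0.55 and -1.04 (endothelial), -0.57 and 0.13 (megakaryocyte) and -0.51 and -0.082 (bins).

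The following were chosen after seeing the data. With deep erythroid-like clusters only, ratios were 0.19 and -1.43 (stromal), 0.32 and -0.51 (endothelial), -0.28 and -0.067 (megakaryocyte) and -0.30 and -0.17 (bins). Among cells of 5000 to 20000 UMIs they were a reversed -0.73 and -0.78 (stromal), a reversed -0.64 and -0.74 (endothelial), -1.65 and 0.47 (megakaryocyte) and -0.70 and a reversed 0.11 (bins), and 30 rather than 61 nuclear members were 2-fold apart between stromal-like and erythroid-like cells. With globin under 0.5% in the other classes they were 0.54 and -1.23 (endothelial) and -0.36 and 0.012 (megakaryocyte). The cause of these shifts was not tested. Among the alternative values, 55 moved by more than counting error or 1.5 times the count, 7 of the set ratios reversed and 68 did neither, those without replicate 1 or 2 among them. Under the alternatives named here the nuclear stromal ratio and the mitochondrial ratios of megakaryocyte-like cells and of the bins were negative, but within windows of the Malat1 and Gm26917 share from 2.5% upward the stromal nuclear share was slightly above the erythroid one. No paired analysis was possible because both lanes belong to 1 group. Differences between animals cannot be seen in 1 pool.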
